A study of Mus musculus with 6 samples.

Results

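Polycomb gene expression was examined in germinal center (GC) B cells and naive B cells sorted from mouse Peyer's patches, which are lymphoid tissue in the wall of the gut. The genes were 10 subunits of the Polycomb repressive complexes, chosen by symbol, and all 10 had an identifier among the 39179 Ensembl genes with a value. They comprised 5 genes of Polycomb repressive complex PRC2 (Ezh2, Ezh1, Eed, Suz12 and Jarid2) and 5 of PRC1 (Bmi1, Ring1, Rnf2, Cbx7 and Cbx8). All mice were WT C57BL/6 females aged 12 wk and untreated as far as the labels state, and the tissue was the ileum. GC B cells had been sorted as Fas+GL7+ and naive, or resting, B cells as Fas-GL7-, each from B cells gated by a lineage marker, so that both populations shared genotype, sex and age and differed in the sort. There were 3 pools of 5 mice per population, with 1 RNA-Seq library each. The study's methods describe the animals as littermates without saying which litters or mice entered which pool, and the individual mice within a pool cannot be told apart. The p-values reported here measure the spread between these pools.

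Polycomb proteins keep genes silent by marking histones. PRC2 methylates histone H3 at lysine K27 through EZH2 or its paralog EZH1, which need EED and SUZ12 to be active, while accessory subunits such as JARID2 and the Polycomb-like proteins help to place the complex on chromatin. PRC1 ubiquitinates histone H2A through RING1 or RNF2 (also called RING1B). Each PRC1 complex carries 1 protein of the PCGF family, to which BMI1 belongs, and the canonical complexes also carry a CBX protein such as CBX7 or CBX8 that reads the methyl mark. In the B cell lineage, EZH2 is known for its high expression in GC B cells, for its requirement in GC formation and for activating mutations in lymphomas of GC origin.

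The authors' values were FPKM, that is, fragments per kilobase of transcript scaled to the size of the library, so that levels are per length. They were rescaled to TPM, with each pool summing to 1000000. Depth was estimated from the spacing of low values and lay between about 9700000 and 16200000 reads per pool, which placed between about 271 and 6530 fragments on each of the 10 genes in each pool. Markers followed the labels of the sort. The 6 GC markers, which include the sorting gene Fas, summed to between 1410 and 1439 TPM in the GC pools and to between 51.6 and 57.5 TPM in the naive pools, and the 5 measured naive markers to between 12.5 and 14.3 TPM and between 934 and 1014 TPM. The B cell receptor component genes Cd79a and Cd79b were above 1057 TPM in every pool, and both were higher in naive B cells, while Ms4a1, which encodes CD20, was above 708 TPM in every pool and was higher in GC B cells. T cell markers were low throughout (sums of 1.78 to 3.68 TPM over 6 genes, none of which was tested), and so were myeloid markers (2.29 to 2.70 TPM in GC and 5.09 to 7.87 TPM in naive pools over 6 genes). Epithelial markers were higher in the naive pools, where the 8 genes summed to between 181 and 217 TPM, than in the GC pools, where they summed to 60.3, 131.9 and 72.0 TPM in replicates 1, 2 and 3. Of the 7 epithelial markers tested, 5 were higher in naive and 1 (Krt18) in GC B cells, and none of the 8 was listed at 0. In bulk RNA of this kind, fewer cells that express a gene and less RNA per cell cannot be told apart.

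The populations were compared by limma on the log2(TPM + 1) scale over 12785 genes, with Benjamini-Hochberg adjustment over all of them. A large part of the transcriptome differed. At an adjusted p under 0.05, 65.6% of the genes tested were called, 35.5% as higher in GC and 30.1% as higher in naive B cells, and in 70.7% of genes the pools of the populations did not overlap (37.8% with GC above, 32.8% with naive above). Against this background, 9 of the 10 Polycomb genes were called, 4 as higher in GC (Ezh2, Suz12, Eed and Cbx8) and 5 as higher in naive B cells (Bmi1, Jarid2, Ezh1, Cbx7 and Rnf2), and the pools did not overlap for any of the 10 (4 with GC above and 6 with naive above). Of the 10 members, 7 were both called and had an absolute log2 fold change of at least 1, as were 25.4% of all genes tested. The median log2 fold change was -0.72 over the 10 genes and 0.03 over all genes tested. Members of either direction were found in both complexes, but in PRC1 only Cbx8 was higher in GC B cells. Its call was close to the threshold and was lost in several alternatives. Positions given with each gene are those of RefSeq on GRCm38.p6, the assembly of the study's transcriptome.

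**Figure D1:**
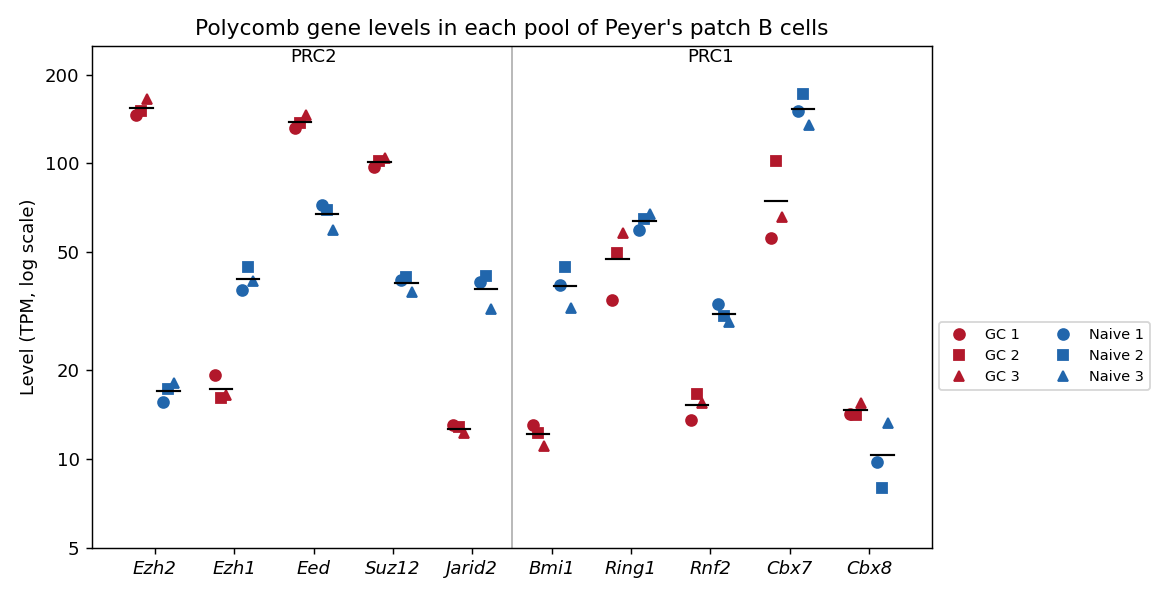
Level of each of the 10 Polycomb genes in each pool, in TPM on a log axis, with GC pools in red, naive pools in blue, 1 marker shape per replicate number and a black line at the mean of 3 pools. Ezh2 moved from between 15.5 and 18.1 TPM in naive pools to between 146 and 165 TPM in GC pools, while Ezh1, Jarid2, Bmi1, Rnf2 and Cbx7 lay lower in each GC pool than in any naive pool.

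The catalytic subunits of PRC2 moved in opposite directions. Ezh2 (ENSMUSG00000029687, chr6:47530274-47595270), which encodes the main H3K27 methyltransferase of dividing cells, measured 146, 150.2 and 165 TPM in GC replicates 1, 2 and 3 and 15.5, 17.3 and 18.1 TPM in naive replicates 1, 2 and 3. The lowest GC pool was thus far above the highest naive pool. The means were 154 ± 9.95 and 16.97 ± 1.33 TPM (SD, n = 3 pools each), a 9.06-fold difference, with a log2 fold change of 3.11 ± 0.08 (SE) and an adjusted p of 4.65e-07 in limma. Of all genes tested, 96.3% had a smaller absolute change. Ezh1 (ENSMUSG00000006920, chr11:101191115-101226463) encodes the alternative methyltransferase, which is known for its expression in resting cells. Its levels were 19.2, 16.1 and 16.4 TPM in the GC pools and 37.3, 44.7 and 40.0 TPM in the naive pools. Every naive pool was thus above every GC pool, by 2.36-fold in the means (log2 fold change -1.19 ± 0.10, SE; adjusted p = 8.13e-05 in limma).

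The ratio of Ezh2 to Ezh1 within a pool does not depend on how the pool is scaled. It was 7.63, 9.34 and 10.1 in GC replicates 1, 2 and 3 and 0.416, 0.386 and 0.453 in naive replicates 1, 2 and 3. Ezh2 was therefore the more abundant of the pair in each GC pool and Ezh1 in each naive pool. On the log2 scale the ratio differed by 4.42 between the populations (two-sided exact permutation test, p = 0.1, the smallest value that 3 against 3 pools allow, and also 0.1 after Benjamini-Hochberg adjustment over the 4 ratios compared). Summed over both genes, the level was 171 ± 9.05 and 57.6 ± 4.64 TPM in GC and naive B cells (SD, n = 3).

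Both non-catalytic core subunits were also higher in GC B cells, by smaller folds than Ezh2. Suz12 (ENSMUSG00000017548, chr11:79993106-80034123), a scaffold of the complex, measured 97.0, 102 and 104 TPM in the GC pools against 40.3, 41.4 and 36.7 TPM in the naive pools. Its log2 fold change was 1.34 ± 0.06 (SE; adjusted p = 5.91e-06 in limma), or 2.56-fold in the means, with no overlap between the populations. Eed (ENSMUSG00000030619, chr7:89954654-89980976), whose product binds the methyl mark and stimulates the enzyme, measured 132, 137 and 146 TPM in the GC pools against 72.2, 69.8 and 59.7 TPM in the naive pools. It was the core gene with the smallest difference, 2.06-fold (log2 fold change 1.04 ± 0.08, SE; adjusted p = 6.69e-05 in limma).

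The balance of the core transcripts also differed. The ratio of Ezh2 to the geometric mean of Eed and Suz12 was 1.29, 1.27 and 1.34 in the GC pools and 0.288, 0.322 and 0.387 in the naive pools. In GC B cells Ezh2 thus slightly exceeded its partners, and in naive B cells it was the scarce one. The log2 ratio differed by 1.98 (two-sided exact permutation test, p = 0.1, the smallest possible). Jarid2 (ENSMUSG00000038518, chr13:44730774-44921643), which encodes an accessory subunit that binds nucleosomes and DNA, went the other way. Its levels were 13.0, 12.8 and 12.2 TPM in the GC pools and 39.5, 41.5 and 32.1 TPM in the naive pools, all of the latter above the former. The means differed by 2.98-fold (log2 fold change -1.50 ± 0.11, SE; adjusted p = 3.89e-05 in limma).

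The sequence before the transcription start is shown for the PRC2 core genes, whose levels moved together, for Ezh1, the paralog that moved opposite to Ezh2, and for Bmi1, the PRC1 gene with the largest decrease in GC B cells. Sequences are from RefSeq on GRCm38.p6, and each reads 5′ to 3′ on the strand of its gene. They end at the base before 1 annotated start, except for Ezh2, where 11 bases after it are included. The start used for Ezh2 lies inside the gene span given above, so its printed stretch lies within that span. Capitals mark letters of known cell cycle promoter elements, searched on both strands: the E2F site (TTTCCCGC, TTTGGCGC, TTTCGCGC or TTTGCCGC), the CCAAT box (CCAAT, or ATTGG on the other strand) and the cell cycle homology region (CHR) element (TTTGAA, or TTCAAA on the other strand). None of the capital stretches overlap. The matches of Eed lie outside the stretch printed, which therefore has no capitals.
Ezh2, chr6:47595020-47595150, minus strand: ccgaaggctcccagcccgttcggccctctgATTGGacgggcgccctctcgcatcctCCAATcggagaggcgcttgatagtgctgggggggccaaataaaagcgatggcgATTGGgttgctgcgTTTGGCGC
Suz12, chr11:79992856-79993105, plus strand: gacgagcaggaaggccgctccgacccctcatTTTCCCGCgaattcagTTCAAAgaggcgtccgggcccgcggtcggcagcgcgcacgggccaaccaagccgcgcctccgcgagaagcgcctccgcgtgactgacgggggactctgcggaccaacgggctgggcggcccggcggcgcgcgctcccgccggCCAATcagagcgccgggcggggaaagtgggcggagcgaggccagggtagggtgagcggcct
Eed, chr7:89980977-89981096, minus strand: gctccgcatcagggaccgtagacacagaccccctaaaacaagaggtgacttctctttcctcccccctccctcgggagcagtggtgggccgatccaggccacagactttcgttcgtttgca
Ezh1, chr11:101226464-101226583, minus strand: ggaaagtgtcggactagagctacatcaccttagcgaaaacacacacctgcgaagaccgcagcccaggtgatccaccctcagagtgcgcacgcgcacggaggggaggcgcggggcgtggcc
Bmi1, chr2:18676898-18677017, plus strand: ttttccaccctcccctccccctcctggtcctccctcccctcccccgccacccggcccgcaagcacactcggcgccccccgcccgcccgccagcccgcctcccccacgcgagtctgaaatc

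Letters of the E2F site were in the windows of Ezh2, beginning 3 bases past the start, and of Suz12, beginning 219 bases before it. In no window of the other 8 members were they found, where a window is 250 bases before to 50 after a start and the 10 genes have 11 windows. Over all 32851 RefSeq windows of this length, 2.26% held an E2F site. The Ezh2 window held 3 CCAAT boxes, 90, 64 and 11 bases before the start. For Ezh2 and Cbx7, the start used lies inside the gene span, and distances refer to that start. CCAAT boxes were in 7 of the 11 member windows, those of 6 members (Ezh2, Eed, Suz12, Jarid2, Cbx7 and Cbx8), and in 37.4% of all windows. The CHR letters were in 3 of the 11 member windows (Eed, Suz12 and Cbx7) and in 17.9% of all windows. The latter elements thus occurred in members of either direction, and the windows of Ezh1 and Bmi1 held none of the motifs searched. These matches describe letters and were not tested as binding sites.

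Bmi1, Rnf2 and Ring1 encode the ubiquitin ligase module of PRC1. Bmi1 (ENSMUSG00000026739, chr2:18677018-18686629; PCGF4), known for repressing the Cdkn2a locus and for its role in stem cells, measured 13.0, 12.2 and 11.1 TPM in the GC pools against 38.8, 44.6 and 32.4 TPM in the naive pools. The difference of 3.19-fold was the largest decrease among the 10 genes (log2 fold change -1.59 ± 0.13, SE; adjusted p = 6.71e-05 in limma). Rnf2 (ENSMUSG00000026484, chr1:151469398-151500991), the ligase RING1B, measured 13.5, 16.6 and 15.5 TPM in the GC pools against 33.3, 30.3 and 29.1 TPM in the naive pools. It was 2.03-fold higher in naive B cells, again without overlap (log2 fold change -0.98 ± 0.10, SE; adjusted p = 0.00017 in limma). Ring1 (ENSMUSG00000024325, chr17:34020792-34024680), the other ligase, measured 34.4, 49.7 and 58.0 TPM in the GC pools against 59.3, 64.8 and 67.6 TPM in the naive pools. The GC pools were widely spread and the highest of them came close to the lowest naive pool. This difference did not pass the test (log2 fold change -0.45, 95% interval -0.90 to -0.01; adjusted p = 0.0681 in limma), and without GC replicate 1 the log2 fold change was -0.25. It passed in 8 of 17 alternatives, among them the scaling by quantiles (adjusted p = 0.0295) and the replicate block (0.0295), with the direction the same in all 17. Ring1 was the more abundant ligase transcript in every pool, with a ratio to Rnf2 of between 2.54 and 3.75 in GC and between 1.78 and 2.33 in naive pools (two-sided exact permutation test of the log2 ratio, p = 0.1, the smallest possible).

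The CBX proteins read the mark that PRC2 leaves. Cbx7 (ENSMUSG00000053411, chr15:79915804-79971143) measured 56.1, 102 and 66.0 TPM in GC replicates 1, 2 and 3 and 151, 172 and 135 TPM in the naive pools. It was the most abundant of the 10 genes in naive B cells and was 2.04-fold higher there (log2 fold change -1.06 ± 0.22, SE; adjusted p = 0.00542 in limma). The GC pool with the highest Cbx7, replicate 2, was also the GC pool with the highest sum of epithelial markers, 131.9 TPM. Among the naive pools the epithelial sum was highest in replicate 1 (217 TPM) and Cbx7 in replicate 2 (172 TPM). Other members called as higher in naive B cells differed in this. Rnf2 was highest in GC replicate 2 among the GC pools, while Ezh1, Jarid2 and Bmi1 were highest in GC replicate 1. Without GC replicate 2 the log2 fold change of Cbx7 was -1.30. Over all pools left out in turn it lay between -1.30 and -0.88, always past the test. The RefSeq gene span of Apobec3 overlaps that of Cbx7 by 2415 bases, introns included. Apobec3 was at 643 ± 12.6 and 507 ± 25.5 TPM in GC and naive B cells (SD, n = 3). Whether transcripts of Apobec3 and Cbx7 share bases or reads was not tested. Cbx8 (ENSMUSG00000025578, chr11:119036303-119040913) measured 14.2, 14.1 and 15.5 TPM in the GC pools against 9.76, 7.97 and 13.2 TPM in the naive pools. Its difference of 1.42-fold was small (log2 fold change 0.49 ± 0.17, SE; adjusted p = 0.0422 in limma) and close to the threshold: leaving out any pool but naive replicate 3 brought the adjusted p to between 0.0803 and 0.112. Cbx7 exceeded Cbx8 in every pool, by 3.94- to 7.23-fold in GC and by 10.2- to 21.6-fold in naive pools (two-sided exact permutation test of the log2 ratio, p = 0.1, the smallest possible).

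The epithelial markers and the 5 Polycomb genes called as higher in naive pools moved in the same direction. The part of epithelial RNA in these differences was not tested. The order of levels within each population, which TPM allows because it is per length, changed. In GC B cells Ezh2 was highest, followed by Eed, Suz12, Cbx7, Ring1, Ezh1, Rnf2, Cbx8, Jarid2 and Bmi1. Neighbors in this order had overlapping pools except for Eed against Suz12, Ring1 against Ezh1, and Cbx8 against Jarid2. In naive B cells the order was Cbx7, Eed, Ring1, Ezh1, Suz12, Bmi1, Jarid2, Rnf2, Ezh2 and Cbx8, and neighbors were separate for Cbx7 against Eed, Ring1 against Ezh1, Rnf2 against Ezh2, and Ezh2 against Cbx8. Ezh2 thus went from ninth to the top of the list. Among all genes with at least 1 TPM, its level was above 45.5% of genes in naive and above 92.0% in GC B cells.

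**Figure D2:**
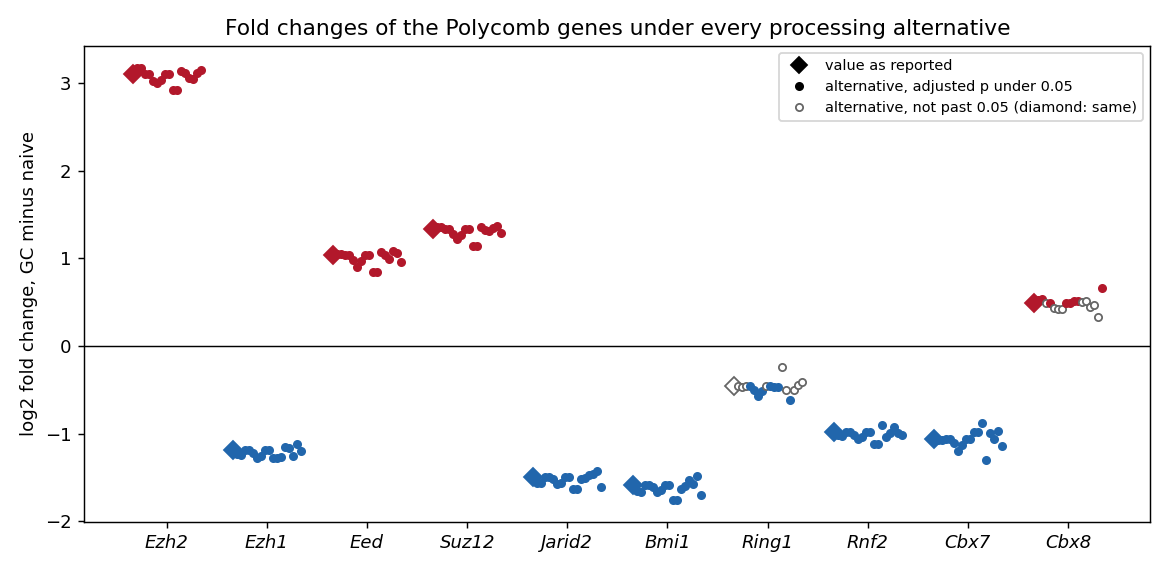
Log2 fold change (GC minus naive) of each Polycomb gene as reported (diamonds) and under 17 alternatives (circles), filled where the adjusted p was under 0.05. Every point of a gene lies on 1 side of 0, and open symbols occur only for Ring1 and Cbx8.

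The other Polycomb genes were described from 4 lists with 40 genes in total, of which 36 were tested. These lists were chosen by symbol with earlier results of these data known. Of these, 19 (52.8%) were higher in GC B cells, 7 (19.4%) were higher in naive B cells and 10 were not called, against 35.5% and 30.1% of all genes tested. The median log2 fold change was 0.37. Of the 8 PRC2 partners, 6 were higher in GC B cells and 1 was lower there. The smallest of the 6 increases was that of Aebp2, 1.17-fold (log2 fold change 0.23, adjusted p = 0.0486 in limma). Rbbp7 and Rbbp4, histone chaperones shared by PRC2 and other complexes, were at 292 ± 6.79 and 261 ± 8.57 TPM in GC and at 94.0 ± 2.48 and 102 ± 1.38 TPM in naive B cells (SD, n = 3 each). Their log2 fold changes were 1.62 (adjusted p = 4.93e-07 in limma) and 1.35 (9.79e-07). Lcor was the PRC2 partner that was not called.

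The 3 Polycomb-like genes, whose products recruit PRC2 to CpG-rich DNA, moved in different directions. Phf19 measured 102, 103 and 106 TPM in the GC pools against 5.48, 5.17 and 5.38 TPM in the naive pools, a 19.4-fold difference (log2 fold change 4.04 ± 0.06, SE; adjusted p = 1.13e-07 in limma). Mtf2 was 6.91-fold higher in GC B cells, with 192 ± 5.54 against 27.7 ± 1.88 TPM (SD, n = 3; log2 fold change 2.75, adjusted p = 3.42e-07 in limma). Phf1 was 7.17-fold higher in naive B cells instead, with 148 ± 10.8 against 20.7 ± 1.62 TPM (SD, n = 3; log2 fold change -2.78, adjusted p = 7.99e-07 in limma). Phf1 thus made up 81.7% ± 1.21 of the family's summed TPM in naive and 6.54% ± 0.41 in GC B cells, where Mtf2 held 60.7% ± 1.001 and Phf19 32.8% ± 0.90 (SD, n = 3). The Phf19 window held an E2F site 208 bases before the start used, which lies inside its gene span. Windows of Mtf2 and Phf1 held no E2F site, while CCAAT and CHR letters were found for Mtf2. Of the other Polycomb genes named by the rule that have a window, Phf19 alone held an E2F site. Rbbp4 and Rbbp7, also higher in GC B cells, held none.

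**Figure D3:**
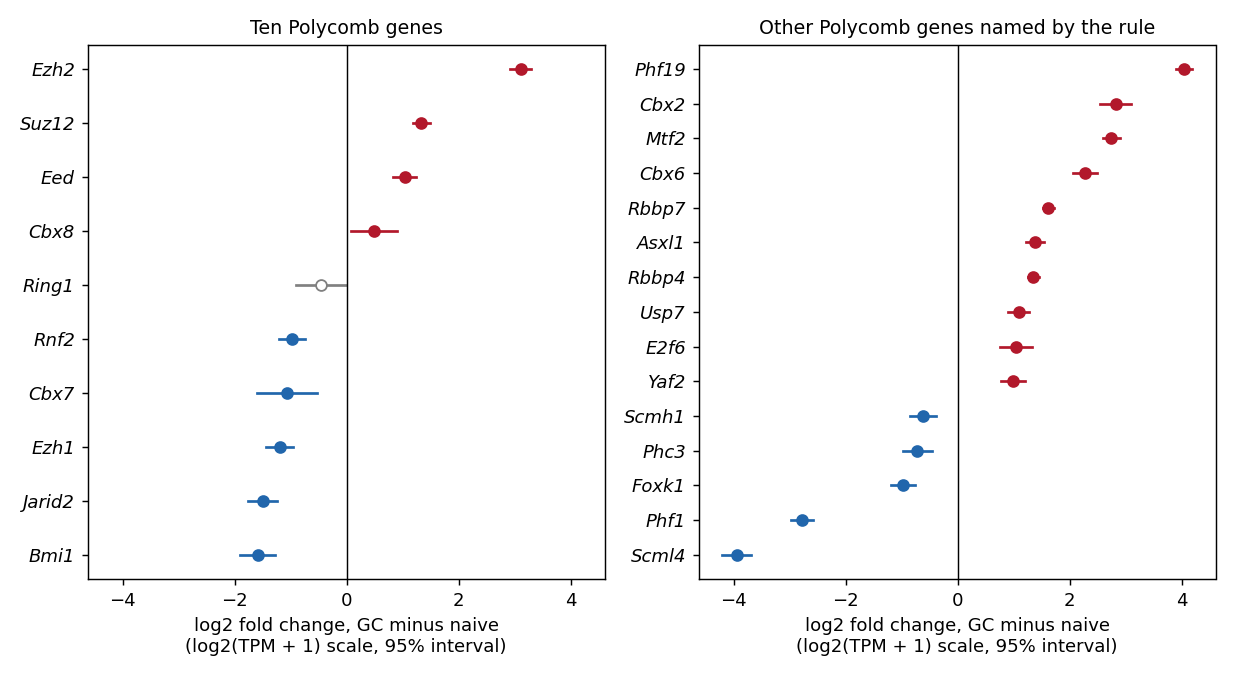
Log2 fold change (GC minus naive, log2(TPM + 1) scale) with its 95% interval for the 10 Polycomb genes (left) and for the 15 other Polycomb genes named by the rule (right), in red where higher in GC, in blue where higher in naive B cells and open where the adjusted p was not under 0.05. Phf19 at 4.04 and Scml4 at -3.95 lie at the ends of the right panel, and Ezh2 at 3.11 and Bmi1 at -1.59 at the ends of the left.

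Among canonical PRC1 partners, 3 of 9 tested (33.3%) were higher in GC, 3 (33.3%) in naive B cells and 3 were not called. Over all genes tested, these shares were 35.5% and 30.1%. Cbx2 and Cbx6, whose products belong to the same family as CBX7, were among those higher in GC B cells. Cbx2 was at 11.7 ± 0.48 and 0.804 ± 0.158 TPM in GC and naive B cells, and Cbx6 at 42.5 ± 3.17 and 7.97 ± 0.59 TPM (SD, n = 3 each; log2 fold changes 2.82 and 2.28, adjusted p = 3.02e-06 and 2.66e-06 in limma). Cbx2 reached the filter on low values through the GC pools, and Cbx6 lies within the span of Npcd, a gene listed at 0 in all pools. Scml4, a gene with homology to the Drosophila Polycomb protein Scm, had the largest decrease of the lists, with 2.43, 2.91 and 2.83 TPM in the GC pools and 57.3, 61.8 and 50.2 TPM in the naive pools (log2 fold change -3.95 ± 0.11, SE; adjusted p = 6.02e-07 in limma). Phc3 and Scmh1 were lower in GC B cells by 0.72 and 0.61 on the log2 scale (adjusted p = 0.00118 and 0.00149 in limma), and Phc1, Phc2 and Pcgf2 were not called.

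Of 13 variant PRC1 genes tested, 5 (38.5%) were higher in GC, 2 (15.4%) in naive B cells and 6 were not called. Over all genes tested, the shares were 35.5% and 30.1%. Usp7, a deubiquitinase found with these complexes, was at 245 ± 5.77 against 115 ± 12.0 TPM, E2f6, a repressor of the E2F family, at 14.9 ± 0.70 against 6.80 ± 0.98 TPM, and Yaf2, a DNA-binding adaptor, at 32.3 ± 1.96 against 15.8 ± 1.43 TPM in GC against naive B cells (SD, n = 3 each). Their log2 fold changes were 1.09, 1.04 and 0.99 (adjusted p = 4.22e-05, 0.000331 and 0.000115 in limma). Of the complex that removes ubiquitin from histone H2A, opposing PRC1, 5 of 6 genes tested (83.3%) were higher in GC B cells. The other 1 (16.7%) was higher in naive B cells, against shares of 35.5% and 30.1% over all genes tested. The smallest of the 5 increases was that of Bap1, 1.12-fold (log2 fold change 0.15, adjusted p = 0.0308 in limma). Asxl1 was 2.69-fold higher in GC B cells (log2 fold change 1.38, adjusted p = 5.40e-06 in limma), while Foxk1, a transcription factor that binds the complex, was 2.02-fold higher in naive B cells (log2 fold change -0.97, adjusted p = 0.000121).

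The shares of paralogs were computed for families that held several members, a choice made after the values had been seen, and are given without a test. The PCGF family, to which Bmi1 belongs, summed to 88.4 ± 2.28 and 94.8 ± 8.998 TPM in GC and naive B cells, and the share of Bmi1 was 13.7% ± 0.91 in GC and 40.6% ± 3.32 in naive B cells (SD, n = 3, for sums and shares). In GC B cells Pcgf1 (27.8% ± 2.55), Pcgf6 (24.7% ± 1.22) and Pcgf5 (19.7% ± 1.64), which belong to variant PRC1, each held more than Bmi1.

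**Figure D4:**
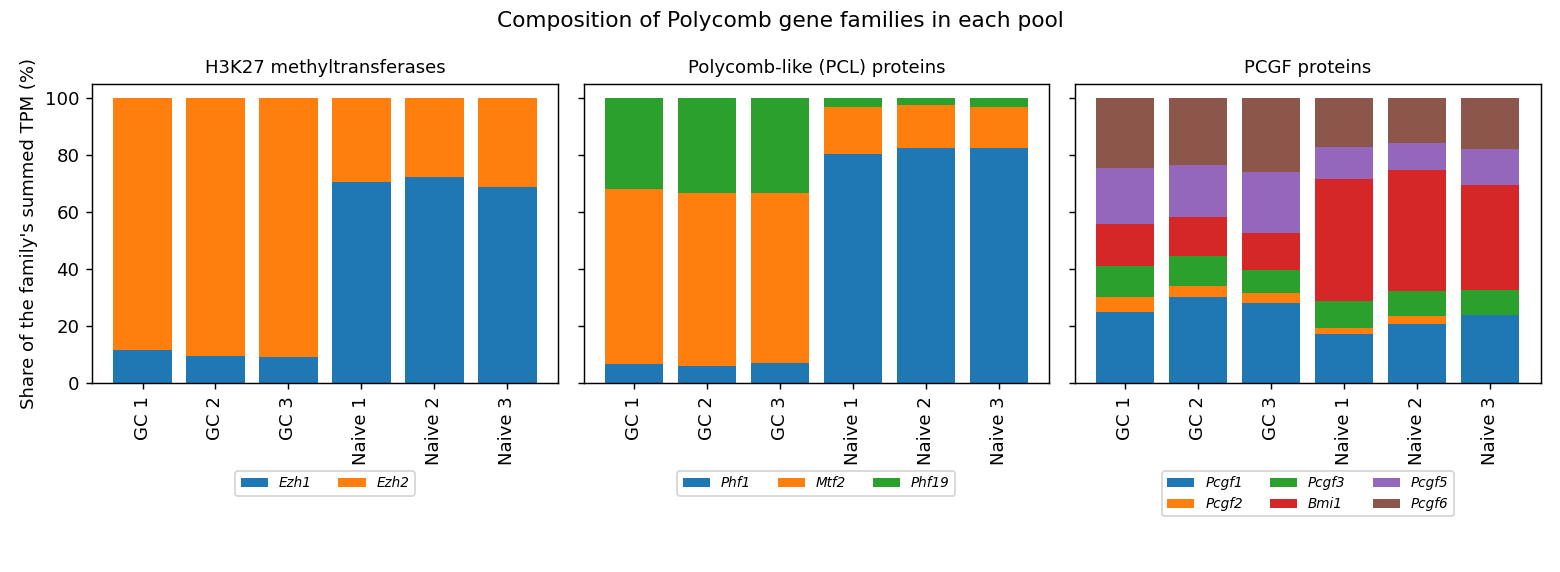
Share of each gene in the summed TPM of its family (in %, stacked to the whole) in each of the 6 pools, for the H3K27 methyltransferases, the Polycomb-like proteins and the PCGF proteins. Ezh1, Phf1 and Bmi1 take larger shares in all 3 naive pools than in any GC pool.

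The demethylases that remove the mark of PRC2 also split. Kdm6b (JMJD3), which is known to respond to stimulation of immune cells, measured 11.1, 10.7 and 9.95 TPM in the GC pools against 33.3, 33.3 and 29.3 TPM in the naive pools (log2 fold change -1.51 ± 0.08, SE; adjusted p = 1.21e-05 in limma). Kdm6a (UTX) was higher in GC B cells by 1.36-fold, with 37.0 ± 0.98 against 27.2 ± 2.71 TPM (SD, n = 3; log2 fold change 0.43, adjusted p = 0.00405 in limma), and its log2 fold change was 0.22 after a correction for base content and length. Of 5 genes known to be repressed by EZH2, 3 were higher in GC B cells, 1 was lower and 1 was not called, against 35.5% and 30.1% of all genes tested. Irf4, a regulator of plasma cell differentiation, was 3.51-fold lower in GC B cells, with 21.7 ± 0.49 against 76.4 ± 5.46 TPM (SD, n = 3; adjusted p = 2.49e-06 in limma). Prdm1, which encodes the plasma cell regulator BLIMP1, measured 5.22, 4.69 and 5.11 TPM in the GC pools against 0.932, 0.862 and 1.07 TPM in the naive pools (log2 fold change 1.62, adjusted p = 3.77e-05 in limma). The cell cycle inhibitor gene Cdkn1a was at 9.77 ± 0.70 against 4.17 ± 1.48 TPM (SD, n = 3; log2 fold change 1.10, adjusted p = 0.00553 in limma). Cdkn2a measured 1.05, 1.73 and 1.37 TPM in the GC pools and was listed at 0 in the naive pools (adjusted p = 0.000574 in limma), and Cdkn2b was between 0.683 and 1.88 TPM in all pools (adjusted p = 0.369). Prdm1 and Cdkn2a reached the filter on low values through the GC pools. Plasma cell markers did not move as 1 group, with Igj and Slamf7 higher in GC, Sdc1 higher in naive B cells, and Tnfrsf17 near 0 in all pools. Of 6 stromal and endothelial markers, Pecam1 was tested and was higher in naive B cells (121 to 132 TPM against 21.9 to 24.2 TPM), and the other 5 were each under 1 TPM in every pool.

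Proliferation moved with the population as well. The 19 proliferation genes summed to 4028 to 4136 TPM in GC and 311 to 323 TPM in naive pools, and each of them was called as higher in GC B cells, against 35.5% of all genes tested. Mki67, Cdk1 and Bub1 were under 1 TPM in every naive pool and reached the filter on low values through the GC pools. Mki67 was at 228 ± 1.04 and 0.785 ± 0.107 TPM in GC and naive B cells, and Pcna at 642 ± 13.3 and 119.7 ± 1.99 TPM (SD, n = 3 each). Whether cell division accounts for any of the Polycomb differences was not tested. The 5 genes whose log2(TPM + 1) values lay closest to those of Ezh2 over the 6 pools, by root mean square difference, were Rrm1 (0.13), Rabl5 (0.17), Cdca7 (0.18), Mbd4 (0.20) and Helq (0.20). Rrm1, a subunit of ribonucleotide reductase, was at 146 ± 3.57 and 17.8 ± 1.03 TPM in GC and naive B cells (SD, n = 3). The likeness was over 6 pools of 2 populations, so it rests mainly on the level in each population.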

How the data were processed

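RNA-Seq was performed on GC and naive B cells of Peyer's patches, with 3 pools per population. Libraries had been made with the NEB NEXT Ultra kit. The authors demultiplexed reads with CASAVA v1.8 and FastQC served for quality control. Adapters were trimmed (cutadapt v1.9), RSEM v1.2.25 assigned reads to transcripts of release v75 on NCBIm38, and FPKM values per Ensembl gene and pool were deposited by the authors. The submitters' notes also list a package for count statistics without a role, and strand handling is not given in the sources used here. FPKM varies with the length given to each gene, and reads shared by overlapping or similar genes are divided by the model of RSEM.

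TPM was computed as FPKM over the pool total times 1000000. Symbols came from an annotation table that named 33398 of 39179 identifiers. The 12785 genes that reached 1 TPM in 3 or more pools were fitted with limma 3.58.1 in R 4.3.3 (lmFit, eBayes with a trend) on log2(TPM + 1), where the pseudocount of 1 understates changes of low genes. Calls were made at a Benjamini-Hochberg adjusted p under 0.05. The fit was tested on simulated data in which 200 of 12785 genes changed by 1 on the log2 scale. It recovered 80.5% of them, and 1.83% of its calls were false. In the data 65.6% of genes were called, so the simulation does not describe a setting with so many changes. Ratios within pools were compared with exact permutation tests. Depth was estimated from genes with 1 transcript, of which between 55.3% and 66.1% of low values lay within 0.1 of a whole read, so it is approximate and no count test was used. Other steps used Python 3.11.15, pandas 2.3.3, numpy 2.4.6, scipy 1.17.1 and matplotlib 3.10.9. Promoter windows and gene positions came from RefSeq on GRCm38.p6, in which all 10 genes were found.

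The members and gene lists were chosen with earlier results of these data known. Named genes are the 10 members, other listed Polycomb genes that were called with an absolute log2 fold change of at least 0.58 (up to 10 in each direction), all listed demethylases and EZH2 targets, Mki67, Pcna and the 5 genes closest to Ezh2, while genes of the same lists or families named beyond this rule were chosen after their values were seen. Alternatives covered pseudocounts, filters, FPKM as deposited, scaling, the trend, the replicate block, each pool left out, and, added after seeing the data, correction for GC base content together with transcript length. Ighd, a listed naive marker, had no matching symbol. Some genes of these lists are not reported here by name.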

Additional observations from a re-analysis of the deposited data

How the results depend on the processing

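Each of 43 results was recomputed, 689 times in total. In 672 cases neither the direction nor the call changed (for a count, its size stayed within 1.5 times), and no direction was turned. These cases include the 4 ratios within pools, whose tests could not pass 0.05 in any setting, so only their direction could change. They also include the count of members higher in GC B cells, which was 4 or 3 by setting. The exceptions were Ring1 and Cbx8, and 8 of the 10 members had none. For Ring1 (log2 fold change -0.45, adjusted p = 0.0681), the difference passed the threshold with at least 1 TPM in all 6 pools (-0.45, adjusted p = 0.0488), with FPKM as deposited (-0.50, 0.0498), with quantile normalization (-0.57, 0.0295), with median of ratios scaling (-0.52, 0.0458), and with the correction for GC content and transcript length, without (-0.47, 0.0401) and with the replicate block (-0.47, 0.0105). Leaving out each pool in turn gave between -0.61 and -0.25, past the threshold without GC replicate 3 (adjusted p = 0.022). For Cbx8 (0.49, 0.0422), it was lost without a filter on low values (0.49, adjusted p = 0.0744), with FPKM as deposited (0.43, 0.0768), with quantile normalization (0.42, 0.104) and with median of ratios scaling (0.43, 0.0868), and leaving out each pool in turn gave between 0.34 and 0.67. The cause of these changes was not tested.

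The labels number the pools 1 to 3 in each population, and the mice were littermates, but no source used here says that a number marks shared mice or a shared litter. For that reason the main fit did not treat the pools as pairs. Deviations of same-numbered pools from their population means correlated with r between 0.022 and 0.083 across genes. Of the 6 pools, 5 correlated best with their own number. The correlations were small, and they do not settle whether the numbers mark pairs. With the replicate number as a block, 7960 genes were called in place of 8392, Ring1 passed the threshold (-0.45, adjusted p = 0.0295) and no other call of a member changed. The count of calls over all genes ranged from 7088 to 8639 over the 17 alternatives. The median log2 fold change of all genes was 0.03, and -0.08 after the correction for GC content and length, which covered 86.3% of them. The ratios within pools cannot reach a p under 0.1 with 3 against 3 pools, so their tests say nothing about stability. Depth limits genes near 1 TPM, such as Cdkn2a and Cdkn2b. With at least 1 TPM required in all 6 pools, Cbx2, Prdm1, Cdkn2a, Cdkn2b and Mki67 had no value, and Cdkn2a had none with FPKM as deposited.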
